A study of Rattus norvegicus with 5 samples.

Results

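DNA repair and damage checkpoint genes were followed through the lung metastases and primary tumours of a rat glioma. The set was a list of 38 genes spread over end joining, homologous recombination, mismatch repair, excision repair and the damage checkpoint, and each gene was read from its probe through the RefSeq accession on the array. A probe was named for 29 of the 38, each by 1 probe, out of 15442 genes with a probe on the array. Tests covered the 28 genes whose probe exceeded background on every array of 1 group or more, among 18913 such features. *Neil1*, a DNA glycosylase, was not well above background on any array. No probe was named here for *Prkdc*, *Tp53bp1*, *Fanca*, *Blm*, *Rpa1*, *Rad52*, *Msh6*, *Ercc2* or *Atr*, which were not analysed.

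All 5 samples were tumours of C6-L, a line derived from the rat C6 glioma, grown in BALB/c nu/nu nude mice whose age is given as 6 weeks. Nude mice have no thymus and so few mature T cells, but keep B cells, natural killer cells and macrophages. Metastatic nodules of the lung made up 1 group of 3 samples, No. 1 to No. 3, collected 6 weeks after γ-irradiation. The irradiated primary was 1 tumour collected at the same time, and the non-irradiated primary was 1 tumour collected 6 weeks after the cells were implanted. The radiation dose, the site of implantation and the number of animals are not given in the sources used here, and neither is the mouse that bore each nodule, so a p-value reflects the spread of these 3 nodules, which may be technical. The question posed by the study was how expression in the irradiated primary differs from that in the non-irradiated primary, and how the nodules differ from the irradiated primary.

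Cells mend a double-strand break either by joining its ends, where the Ku heterodimer holds the break and DNA ligase IV seals it, or by copying an intact sister chromatid, where the MRN complex trims the ends and the BRCA proteins prepare the strand exchange. Damaged or wrong bases are cut out and resynthesised by glycosylases, an abasic-site nuclease, PARP1 with the XRCC1 scaffold, a polymerase, a flap nuclease and a ligase, and many of these last enzymes also finish Okazaki fragments during replication. The kinases ATM and ATR sense damage and act through CHK2 and CHK1 to halt the cell cycle, and radiotherapy of glioma acts largely through double-strand breaks.

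Levels are log2 signals relative to the 75th percentile of the same array, so 0 marks a bright probe and each unit is a doubling; levels of different probes are not compared. Each array gave 58717 gene spots, of which 69.8 to 73.5% were well above background and 0 were saturated. Across features, which are not independent replicates, pairs of nodules correlated at 0.985 to 0.992, and nodules correlated with the irradiated primary at 0.975 to 0.981 and with the non-irradiated one at 0.970 to 0.976. The 5 arrays shared 1 slide on which the nodules occupied a row of their own, so row and group cannot be told apart. Of the 8 glioma and glial markers, *Gfap* and *Olig2* were not well above background on any array. The summed level of the other 6, led by *Vim*, was 6.18 to 6.53 in the nodules, 5.98 in the irradiated and 6.01 in the non-irradiated primary. Singly they went both ways. Against the non-irradiated primary, *Vim* (0.91), *Cspg4* (0.48) and *Cnp* (0.35) were higher in the nodules on average. *S100b* (-1.46), *Nes* (-2.43) and *Sox10* (-4.90) were lower. Of these 6, *Nes* and *Sox10* passed by limma (adjusted p = 0.0364 and 0.0365), beside 18.6% of all features. Signal from mouse host cells was read through rat probes. In such bulk tissue, fewer cells of a type and less RNA per cell cannot be told apart.

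The promoter of 1 gene in each of 4 pathways is shown to let the regions upstream of these genes be read beside their levels. *Brca1*, *Atm*, *Exo1* and *Parp1* had the largest difference between the nodules and the non-irradiated primary among the members of their pathway with an entry in the RefSeq promoter table of build GRCr8. Each window is the 250 bases before the annotated start, 5′ to 3′ along the gene. They lie at chr10:86977582-86977831 on the minus strand for *Brca1*, chr8:62828630-62828879 on the minus strand for *Atm*, chr13:90341768-90342017 on the plus strand for *Exo1* and chr13:94839234-94839483 on the plus strand for *Parp1*. Capitals mark any of the words searched on both strands, which were E2F words (TTTCCCGC, TTTCGCGC, TTTGCCGC, TTTGGCGC), the cell cycle homology words TTTGAA and TTCGAA, the CCAAT box and the GC box GGGCGG.
Brca1: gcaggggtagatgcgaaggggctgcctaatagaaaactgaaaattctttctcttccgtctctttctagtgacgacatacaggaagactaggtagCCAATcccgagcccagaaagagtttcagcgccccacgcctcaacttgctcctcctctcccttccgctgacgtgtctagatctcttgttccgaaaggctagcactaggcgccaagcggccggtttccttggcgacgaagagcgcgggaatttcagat
Atm: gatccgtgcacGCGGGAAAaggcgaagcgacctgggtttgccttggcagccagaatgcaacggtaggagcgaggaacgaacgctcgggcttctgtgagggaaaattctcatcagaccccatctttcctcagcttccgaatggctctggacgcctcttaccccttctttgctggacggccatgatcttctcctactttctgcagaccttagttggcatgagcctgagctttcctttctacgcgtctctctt
Exo1: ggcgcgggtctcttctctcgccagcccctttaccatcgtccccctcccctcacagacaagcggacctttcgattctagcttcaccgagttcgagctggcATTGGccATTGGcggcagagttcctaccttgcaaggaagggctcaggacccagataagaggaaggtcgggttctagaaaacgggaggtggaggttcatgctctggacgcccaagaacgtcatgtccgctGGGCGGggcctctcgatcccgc
Parp1: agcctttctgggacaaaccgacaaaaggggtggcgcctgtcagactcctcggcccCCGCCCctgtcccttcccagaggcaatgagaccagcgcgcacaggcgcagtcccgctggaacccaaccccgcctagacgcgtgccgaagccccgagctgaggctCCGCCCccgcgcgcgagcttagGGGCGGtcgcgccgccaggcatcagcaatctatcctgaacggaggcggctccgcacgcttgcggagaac

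*Brca1* held 1 CCAAT box in this window, *Atm* 1 E2F word, *Exo1* 2 CCAAT boxes and 1 GC box, and *Parp1* 3 GC boxes. A promoter was listed for 25 of the 28 tested genes. A GC box was found in 60% of the 25, against 55.6% of the 9110 tested genes with a named promoter, and a CCAAT box in 40% against 36%. An E2F word was found in 12%, which is 3 promoters (*Atm*, *Chek1* and *Ung*), against 3.23%, and a cell cycle homology word in 16% against 12.3%. Over all 27456 promoters of this length, the shares were 32.4% for the GC box, 34.3% for the CCAAT box, 1.81% for the E2F words and 17.3% for the cell cycle homology words. A match of letters is not a bound site, and these shares were not tested.

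Against the irradiated primary, the repair genes of the nodules lay on both sides, and the differences were small. By limma, 0 of 28 passed at an adjusted p under 0.05, where 3.72% of all features tested passed (0.909% higher and 2.81% lower in the nodules). At an unadjusted p under 0.05 there were 8 (5 higher and 3 lower in the nodules), beside 22% of all features. The median difference was 0.14 on the log2 scale, beside 0.034 over all features, and the members ranged from -0.77 for *Xrcc5* to 0.57 for *Atm*. The members' median was 0.0576 without nodule 3, 0.203 without nodule 1 and 0.228 under median scaling. All 3 nodules lay above the irradiated primary for 11 genes (36.2% of all features did so), all lay below it for 8 (31.8% of all features), and the nodules straddled it for 9. The 11 included *Exo1*, which was tested only because the nodules exceeded background. Scaling by the median instead moved the shares over all features to 45.4% above and 24.6% below, with 12 members above and 5 below. Without nodule 1, where the spread came from the other nodules alone, 5 of 28 members passed limma in this comparison. A similar share of all features passed (3187 of 18913). The members were *Xrcc5* (-0.73), *Brca2* (0.71), *Nbn* (-0.55), *Apex1* (0.51) and *Fen1* (0.54).

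Against the non-irradiated primary, 2 repair genes rose in the nodules: *Parp1*, the nick sensor of excision repair, and *Xrcc6*, which encodes the Ku70 subunit of the end-joining heterodimer. These 2 of 28 were 7.14% of the members, beside 18.6% of all features that passed by limma in this comparison (9.72% higher and 8.85% lower). At an unadjusted p under 0.05 there were 11 (9 higher and 2 lower), beside 36.9% of all features. The median difference was 0.38, beside 0.038 over all features. All 3 nodules lay above the non-irradiated primary for 20 of 28 members (40.1% of all features) and below it for 4 (36.8% of all features). Among the 20, nodule 1 was nearly level with it for *Xrcc1*, *Ung* and *Chek1*, and among the 4, nodule 3 was for *Xrcc5*. Median scaling gave 17 members above and 2 below (41.1% and 35.5% of all features). Quantile normalization gave 17 and 5 (40.2% and 38.1%). All 3 nodules lay above both primaries for 8 members (22.3% of all features) and below both for 2 (19.2% of all features). The 8 were *Xrcc6*, *Rpa2*, *Exo1*, *Pole*, *Apex1*, *Fen1*, *Atm* and *Chek2*. *Exo1* was tested only because the nodules exceeded background, so its place in these counts follows in part from that filter. Its level in nodule 3 (-6.08) was below the lowest level well above background on the irradiated array (-6.03). Both comparisons use the same 3 nodules. Both calls were lost under 4 alternatives at differences of similar size. Without nodule 2, *Xrcc6* differed by 0.68 (limma adjusted p = 0.116) and *Parp1* by 1.00 (adjusted p = 0.116), in a fit where 0 of all 18913 features passed (4987 at an unadjusted p under 0.05). Without nodule 3 they differed by 0.67 (adjusted p = 0.0824) and 0.93 (adjusted p = 0.0744), and 344 features passed. Without nodule 1 there were 9 member calls and 6406 over all features. Under median scaling the differences were 0.72 and 1.05 (adjusted p 0.0683 and 0.0692), and with no intensity trend they stayed at 0.70 and 1.03 (0.0618 and 0.0641).

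**Figure D1:**
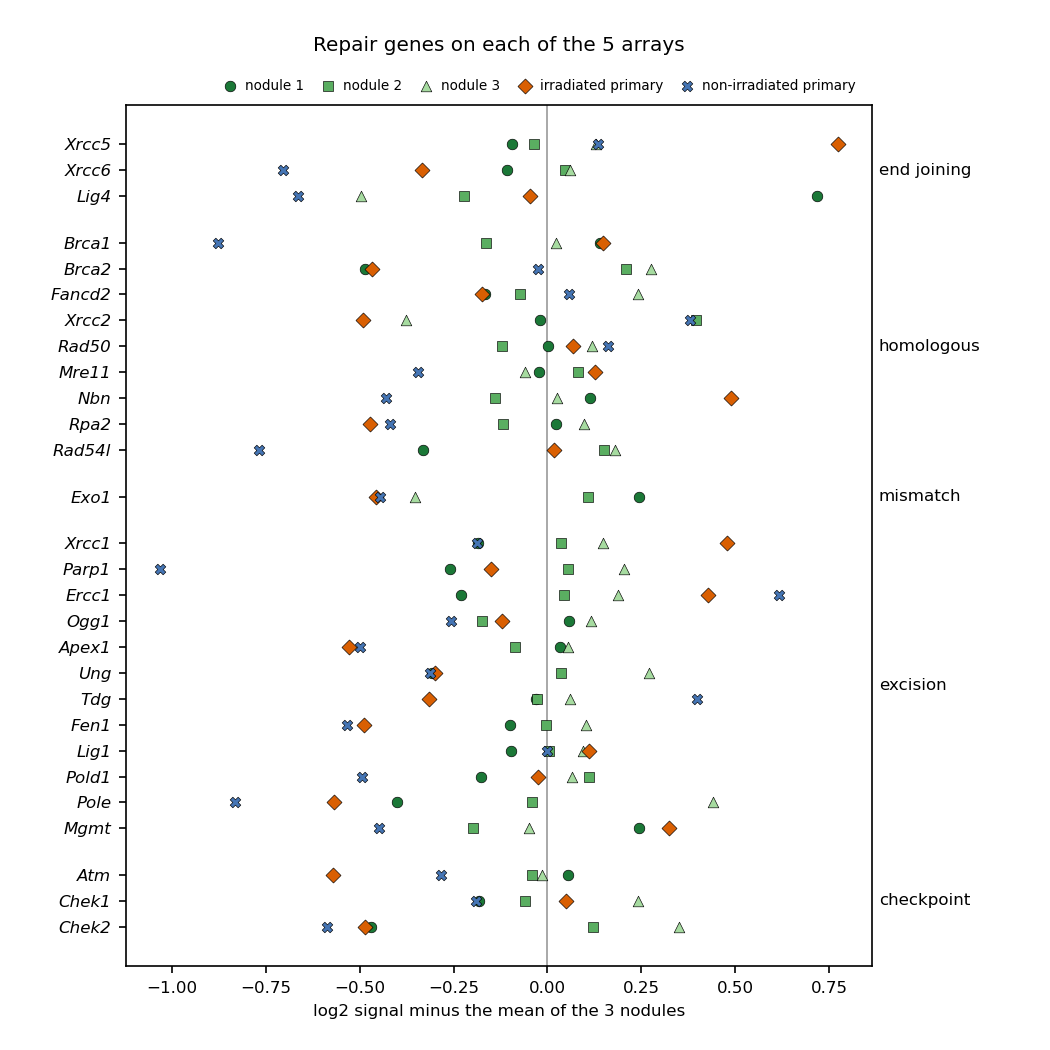
Level of each tested repair gene on each of the 5 arrays, as log2 signal minus the mean of the 3 nodules (x axis), with genes in rows grouped by pathway. Green symbols are the nodules, orange diamonds the irradiated primary and blue crosses the non-irradiated primary. The blue cross lies left of all 3 nodules in 20 of the 28 rows (barely for *Xrcc1*, *Ung* and *Chek1*), and the *Parp1* cross lies furthest left.

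The end-joining genes showed 3 different patterns. *Xrcc6*, the Ku70 subunit, read 2.80, 2.95 and 2.96 in nodules 1, 2 and 3, 2.57 in the irradiated and 2.20 in the non-irradiated primary. All nodules were thus above both primaries. The difference from the non-irradiated primary was 0.70 (SE 0.13, n = 3 nodules against 1 array, limma adjusted p = 0.0291), a 1.63-fold higher level, and that from the irradiated primary was 0.33 (SE 0.13, adjusted p = 0.226). *Xrcc5*, which encodes the partner subunit Ku80, read 1.06, 1.12 and 1.28 in the nodules, 1.93 in the irradiated and 1.29 in the non-irradiated primary. Here the irradiated primary stood above the other 4 arrays, 1.71-fold over the nodule mean, and the nodule difference of -0.77 (SE 0.14) had the smallest adjusted p of the members in that comparison (0.0643). The 2 Ku subunits act as a dimer, and their probes differed in opposite directions between the nodules and the irradiated primary. *Lig4*, the ligase that seals the joined ends, read -1.38 in nodule 1, -2.32 in nodule 2 and -2.59 in nodule 3, against -2.14 in the irradiated and -2.76 in the non-irradiated primary. It was the 1 member that spanned at least 1 log2 unit between nodules (1.22), which 9.22% of all features did, and its differences of 0.05 and 0.66 did not pass (SE 0.51 in each).

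Of the 9 genes of homologous recombination, 0 passed by limma in either comparison (at an unadjusted p under 0.05, 2 against the irradiated and 4 against the non-irradiated primary, beside 22% and 36.9% of all features). *Brca1*, a tumour suppressor that directs end resection and the choice of repair pathway, read -4.76, -5.06 and -4.88 in the nodules, -4.75 in the irradiated and -5.78 in the non-irradiated primary. The non-irradiated primary was the lowest array, below all nodules. The nodule difference from it was 0.88 (SE 0.28, adjusted p = 0.0948), and the 2 spots of the probe on the irradiated array differed by 0.608 (-5.06 and -4.45), the largest gap between paired spots of any member. *Brca2*, which acts on the resected single strand, read -0.11 in nodule 1, 0.59 in nodule 2 and 0.65 in nodule 3, against -0.09 in the irradiated and 0.35 in the non-irradiated primary. Nodule 1 was level with the irradiated primary, while the other nodules were above both primaries. *Rad54l*, a motor protein that remodels DNA during strand exchange, read -0.69, -0.21 and -0.18 in the nodules, -0.34 in the irradiated and -1.13 in the non-irradiated primary. All nodules were above the non-irradiated primary, by 0.77 on average (SE 0.25, adjusted p = 0.10), but they straddled the irradiated one. *Rpa2*, a subunit of the complex that coats single-stranded DNA, read 1.72, 1.58 and 1.80 in the nodules, 1.23 in the irradiated and 1.28 in the non-irradiated primary. The nodules lay above both primaries, with differences of 0.47 (SE 0.14, adjusted p = 0.149) and 0.42 (SE 0.14, adjusted p = 0.0998).

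The 3 genes of the MRN complex, which binds and trims broken ends, did not share a pattern. *Nbn*, the subunit that recruits ATM, read 0.73, 0.47 and 0.64 in the nodules, 1.103 in the irradiated and 0.18 in the non-irradiated primary. The nodules fell between the primaries with no overlap, at -0.49 from the irradiated (SE 0.15, adjusted p = 0.166) and 0.43 from the non-irradiated one (SE 0.15, adjusted p = 0.116). *Mre11*, the nuclease, read -2.77, -2.66 and -2.81 in the nodules, -2.62 in the irradiated and -3.09 in the non-irradiated primary. *Rad50*, the ATPase, read -2.08, -2.20 and -1.96 in the nodules, -2.01 in the irradiated and -1.92 in the non-irradiated primary, a spread of under 0.3 over all 5 arrays. *Fancd2*, which marks crosslinked DNA in the Fanconi anaemia pathway, read -2.40, -2.31 and -1.997 in the nodules, within which both the irradiated (-2.41) and the non-irradiated primary (-2.18) lay or nearly lay. *Xrcc2*, which supports strand exchange and was read from 1 spot per array, was dim. It read -5.57, -5.15 and -5.92 in the nodules and -5.17 in the non-irradiated primary, and was not well above background in the irradiated primary. Set against the lowest measurable level there, its signal was at least 1.40-fold higher in the mean of the nodules (limma adjusted p = 0.541) and at least 1.82-fold higher in the non-irradiated primary.

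*Exo1*, the nuclease that removes the mismatched strand and also lengthens resected ends, was the only mismatch repair gene of the 38 with a named probe. It read -5.48 in nodule 1, -5.61 in nodule 2 and -6.08 in nodule 3, and was not well above background in either primary. The mean of the nodules was at least 1.24-fold over the irradiated (limma adjusted p = 0.543) and at least 1.32-fold over the non-irradiated primary (adjusted p = 0.443). Neither passed, and the SD of the nodules was 0.31 (n = 3). The bounds do not hold for each nodule, as nodule 3 lay below the lowest level well above background on the irradiated array (-6.03). *Exo1* was tested only because the nodules exceeded background.

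Excision repair gave 12 tested genes, with *Mgmt* counted among them although it strips alkyl groups without excision. Of the 12, 1 rose against the non-irradiated primary (8.33%, beside 18.6% of all features that passed). Against the irradiated one, 0 passed by limma (beside 3.72%) and 3 had an unadjusted p under 0.05 (beside 22%). *Parp1* read 3.37, 3.68 and 3.83 in nodules 1, 2 and 3, 3.47 in the irradiated and 2.59 in the non-irradiated primary. The non-irradiated primary stood apart below the other 4 arrays, while the irradiated primary lay within the range of the nodules. Its difference of 1.03 (SE 0.21, adjusted p = 0.0352), a 2.04-fold higher level, was the largest of the members in this comparison, and that from the irradiated primary was 0.15 (SE 0.21). *Xrcc1*, the scaffold that PARP1 brings to a nick, read 2.26, 2.49 and 2.60 in the nodules, 2.93 in the irradiated and 2.26 in the non-irradiated primary. Nodule 1 was level with the non-irradiated primary, and all nodules were below the irradiated one, at -0.48 on average (SE 0.17, adjusted p = 0.195).

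The abasic-site and flap nucleases were close among the nodules and higher in them than in either primary. *Apex1*, which cuts the backbone at an abasic site, read 3.65, 3.53 and 3.67 in the nodules, 3.09 in the irradiated and 3.12 in the non-irradiated primary. *Fen1*, which trims flaps in base excision repair and behind the replication fork, read 3.53, 3.63 and 3.73 in the nodules, 3.14 in the irradiated and 3.10 in the non-irradiated primary. In both genes the primaries were close to each other and all nodules were above them. Neither passed at an adjusted p under 0.05: *Apex1* differed by 0.53 (adjusted p = 0.0946) and 0.50 (0.0513), and *Fen1* by 0.49 (0.129) and 0.53 (0.0529). *Fen1* passed against the non-irradiated primary after quantile normalization, in the deposited matrix and when only features well above background on all 5 arrays were tested, and *Apex1* passed under the last of these and after normexp correction.

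Of the DNA polymerases and the ligase shared with replication, *Pole*, the leading-strand polymerase, read -2.08, -1.72 and -1.24 in the nodules, -2.25 in the irradiated and -2.51 in the non-irradiated primary. All nodules were above both primaries, but they differed among themselves by up to 0.84, and the differences of 0.57 (SE 0.35) and 0.83 (SE 0.35, adjusted p = 0.167) did not pass. *Pold1*, the lagging-strand polymerase, read 1.94, 2.22 and 2.18 in the nodules, 2.09 in the irradiated and 1.62 in the non-irradiated primary, which was again the lowest array. *Lig1*, the ligase that closes Okazaki fragments, differed little between arrays, at 3.33, 3.43 and 3.52 in the nodules, 3.54 in the irradiated and 3.43 in the non-irradiated primary.

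The glycosylases that open base excision repair went different ways. *Ung*, which removes uracil, read -1.36 in nodule 1, -1.02 in nodule 2 and -0.79 in nodule 3, with -1.36 in the irradiated and -1.37 in the non-irradiated primary, so that nodule 1 was level with the primaries. *Ogg1*, which removes oxidised guanine, read -0.97, -1.20 and -0.91 in the nodules, -1.15 in the irradiated and -1.28 in the non-irradiated primary. *Tdg*, which removes thymine and oxidised methylcytosine opposite guanine, read 0.67, 0.67 and 0.76 in the nodules, 0.39 in the irradiated and 1.101 in the non-irradiated primary. The nodules lay between the primaries with no overlap, in the opposite order to *Nbn*, and the differences of 0.32 and -0.40 did not pass (adjusted p = 0.236 and 0.0882). *Ercc1*, the partner of the nuclease that cuts beside bulky adducts, read 2.53, 2.80 and 2.95 in the nodules, 3.19 in the irradiated and 3.37 in the non-irradiated primary. It was 1 of the 2 members with all nodules below both primaries, at -0.43 (SE 0.19, adjusted p = 0.282) and -0.62 (SE 0.19, adjusted p = 0.0882). The other was *Xrcc5*, where nodule 3 (1.28) was nearly level with the non-irradiated primary (1.29). *Mgmt*, which strips alkyl groups from guanine and whose silencing in human glioma goes with response to temozolomide, read -3.23, -3.67 and -3.52 in the nodules, -3.15 in the irradiated and -3.92 in the non-irradiated primary. The nodules lay between the primaries, and neither difference passed (adjusted p = 0.535 and 0.285).

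**Figure D2:**
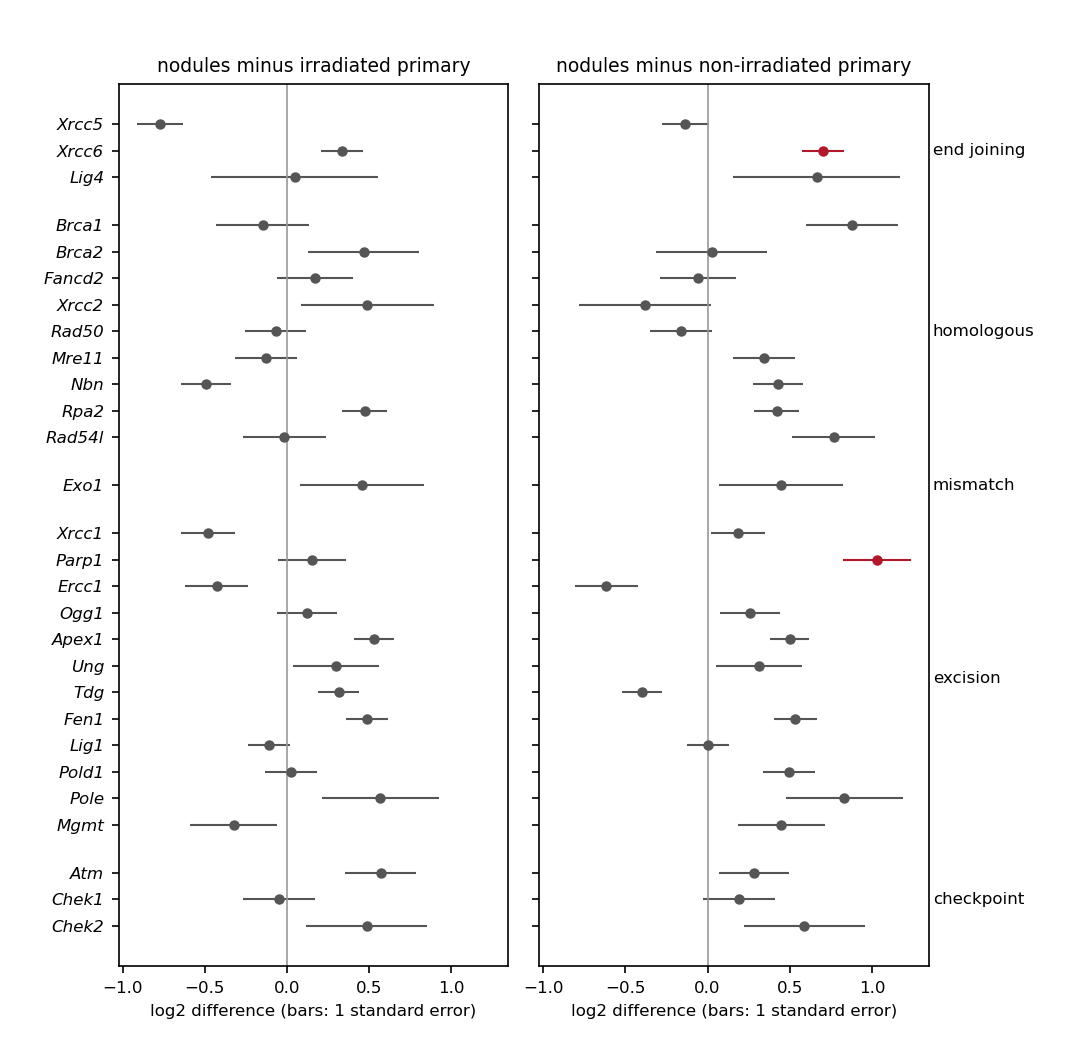
Difference of the nodule mean (n = 3) from the irradiated primary (left) and from the non-irradiated primary (right), in log2 units on the x axis, with 1 standard error from limma, for the 28 tested repair genes by pathway. Red marks an adjusted p under 0.05: *Xrcc6* at 0.70 and *Parp1* at 1.03, both on the right, and no gene on the left.

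Of the checkpoint kinases, 0 of 3 passed in either comparison (at an unadjusted p under 0.05, 1 against the irradiated and 0 against the non-irradiated primary, beside 22% and 36.9% of all features). *Atm*, the kinase activated by double-strand breaks, read -3.55, -3.64 and -3.62 in the nodules, -4.17 in the irradiated and -3.89 in the non-irradiated primary. Its nodule values had the smallest SD of all 28 members (0.049), and all were above both primaries, by 0.57 (SE 0.21, adjusted p = 0.222) and 0.28 (SE 0.21, adjusted p = 0.394). *Chek2*, the kinase downstream of ATM, read -3.28 in nodule 1, -2.69 in nodule 2 and -2.46 in nodule 3, with -3.29 in the irradiated and -3.40 in the non-irradiated primary. Nodule 1 was thus level with the primaries and the other nodules stood above them, and the mean differences of 0.49 and 0.59 did not pass (SE 0.37 in each). *Chek1*, the kinase downstream of ATR that guards replication forks, read -1.48, -1.35 and -1.05 in the nodules, -1.24 in the irradiated and -1.48 in the non-irradiated primary, so that nodules and primaries overlapped.

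How far a single array can be read is shown by the 4 member probes printed 10 times on each array, *Parp1*, *Fen1*, *Rpa2* and *Chek2*. Their SD over the spots of 1 array was 0.0384 to 0.0737. The lowest *Parp1* spot of any nodule was 3.28 and the highest of the non-irradiated primary was 2.71, and for *Chek2* the highest spot of nodule 1 was -3.24 and the lowest of nodule 2 was -2.76. For the tested members with 2 spots, the median gap between the spots was 0.0647 over 110 pairs of spots. Spots of 1 array measure the same RNA and are no replicates of a tumour.

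**Figure D3:**
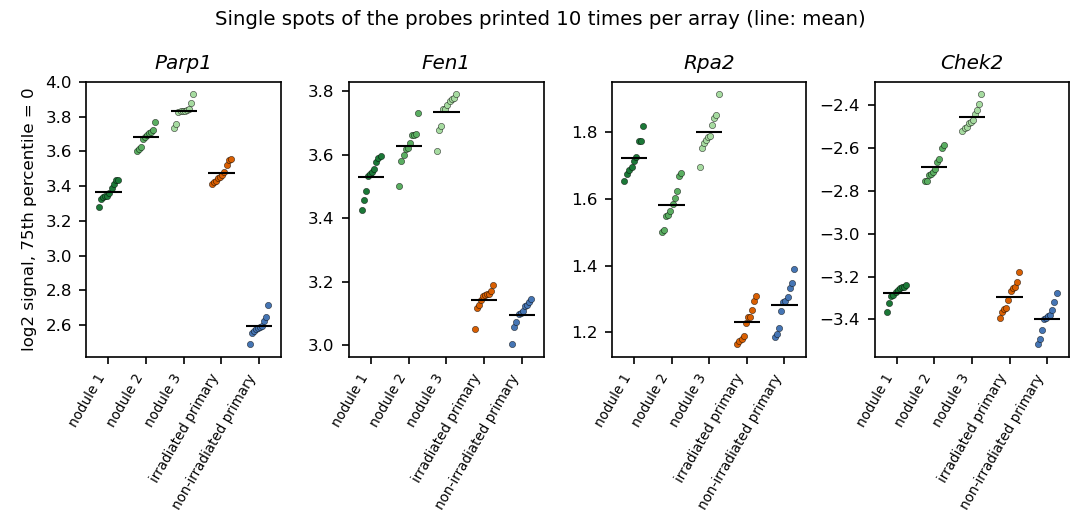
Log2 signal (y axis, 75th percentile of the array at 0, with a separate scale for each gene) of every spot of the 4 repair probes printed 10 times, sorted within each of the 5 arrays (1 *Rpa2* spot of nodule 1 was an outlier and left out); lines are means. Spots of 1 array lie close together (SD 0.0384 to 0.0737) next to the gaps between arrays, such as *Chek2* in nodule 1 (-3.28) against nodule 2 (-2.69).

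Between nodules, the repair genes were often lowest in nodule 1 and highest in nodule 3. Nodule 1 was the lowest for 16 of 28 members (57.1%), beside 32.2% of all features, and nodule 3 the highest for 19 (67.9%), beside 26.1%. The background share depended on the scaling: with the median it was 49.8% and 46.2% (members 60.7% and 82.1%), and with quantile normalization 38.3% and 34.7% (members 57.1% and 71.4%). In excision repair, nodule 1 was the lowest for 9 and nodule 3 the highest for 10 of 12 genes. Among genes of cell division, 19 of 27 were lowest in nodule 1 and 23 highest in nodule 3. Lung epithelial markers were highest in nodule 1: the summed level of 5 of 7 listed markers (*Sftpa1* and *Sftpb* were not tested) was 5.47, 3.87 and -1.59 in nodules 1, 2 and 3, where *Scgb1a1* read 4.11, 3.09 and -5.27. Heart markers (6 of 7 tested) summed to 2.40, 1.47 and 5.48. The part of these markers in the repair gene levels was not tested.

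Between the primaries, with 1 array each and no test, 18 of 27 members measured on at least 1 of the arrays were higher in the irradiated tumour, beside 51.4% of all features. Counted over all 28 members, 16 were higher there under median scaling (45.6% of all features) and 17 under quantile normalization (48%). *Brca1* alone differed by at least 1 log2 unit (3.7% of the members, beside 16.5% of all features, of which 9.31% were higher and 7.14% lower in the irradiated tumour), at 1.03 higher in the irradiated primary, which is 2.04-fold. That difference fell short of 1 under scaling by the median (0.95), quantile normalization (0.94) and normexp correction (0.34). At a difference of at least 1.5-fold there were 10 members (8 higher and 2 lower), beside 33.9% of all features. After *Brca1*, those higher in the irradiated primary were *Nbn* by 0.92, *Parp1* by 0.88, *Rad54l* by 0.78, *Mgmt* by 0.77 (0.36 after normexp correction), *Xrcc1* by 0.67, *Xrcc5* by 0.64 and *Lig4* by 0.62. The 2 lower ones were *Tdg* (-0.71) and *Xrcc2*, for which only the bound given above holds. The median over the 27 was 0.14 (0.0587 under median scaling), beside 0.018 over all features. For scale, 2.61 to 7.38% of all features differed by at least 1 log2 unit between a pair of nodules.

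Other genes of the same pathways were read from a wider list of 106, of which 81 were tested. Against the non-irradiated primary 19 passed by limma (23.5%, beside 18.6% of all features), 17 higher and 2 lower in the nodules. Genes that rose included some of homologous recombination (*Bard1*, *Gen1*, *Fancb*, *Recql4* and *Ube2t*) and 6 of the checkpoint (*Wee1*, *Mdm2*, *Cdkn1a*, *H2ax*, *Ppm1d* and *Timeless*). Excision repair gave *Parp2* and *Ddb1* among others, end joining *Polq* and mismatch repair *Pms1*. The median of the 81 was 0.17, below that of the listed genes. Without nodule 2 there were 0 calls, without nodule 3 there were 3, and without nodule 1 there were 36. The same fits gave 0, 344 and 6406 calls over all 18913 features.

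*Wee1*, the kinase that holds CDK1 inactive, read 2.64, 2.98 and 3.01 in the nodules, 1.53 in the irradiated and 0.79 in the non-irradiated primary. It rose 4.24-fold against the non-irradiated primary (2.08, SE 0.19, adjusted p = 0.0116). It was also the only gene of the wider list to pass against the irradiated primary (1 of 81, or 1.23%, beside 3.72% of all features), at 1.34 (adjusted p = 0.040). That call was lost, at similar differences, under median scaling (1.43), quantile normalization (1.31) or no intensity trend (1.34), and without nodule 2 (1.29) or nodule 3 (1.28). *Bard1*, the obligate partner of BRCA1, read -0.66, -0.55 and -0.43 in the nodules, -0.38 in the irradiated and -2.18 in the non-irradiated primary. Like *Brca1*, it was lowest in the non-irradiated primary, by 1.63 against the nodules (SE 0.16, adjusted p = 0.0126). *Gen1*, which resolves crossed strands, read -1.02, -0.82 and -0.65, then -1.07 and -2.30, a rise of 1.47 (adjusted p = 0.0179).

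Of the genes known to respond to DNA damage, *Mdm2* and *Cdkn1a* rose in the nodules over the non-irradiated primary, while *Gadd45a* did not pass. *Mdm2*, a ubiquitin ligase, read 2.72, 2.69 and 2.97 in the nodules, 3.14 in the irradiated and 1.27 in the non-irradiated primary, and the nodules rose by 1.53 over the latter (adjusted p = 0.0131). *Cdkn1a*, the CDK inhibitor p21, read 4.56, 4.43 and 4.38 in the nodules, 4.65 and 3.22 in the primaries, a rise of 1.24 (adjusted p = 0.0131) on its brighter probe. Its other probe, however, differed by 0.18, and the mean of both by 0.71. *Gadd45a*, a growth arrest gene, was higher in the non-irradiated primary (3.26) than in the nodules (2.75, 2.22 and 2.23) or the irradiated primary (2.36), with an adjusted p of 0.0772. *Ddb2* had no named probe.

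The 2 genes that fell against the non-irradiated primary process blocked or closed ends. *Dclre1c*, the Artemis nuclease, read -1.80, -1.58 and -1.83 in the nodules, -1.82 in the irradiated and -0.49 in the non-irradiated primary (-1.25, SE 0.18, adjusted p = 0.0196). *Tdp2*, which frees ends from trapped topoisomerase, read 0.18, 0.35 and 0.32, then 0.17 and 1.16 (-0.87, SE 0.14, adjusted p = 0.0225). In both, the nodules and the irradiated primary were level and the non-irradiated primary stood above. The sliding clamp *Pcna* and the damage sensor *Xpc* did not pass: *Pcna* differed by 0.43 (adjusted p = 0.09001) and *Xpc* by -0.0033 (0.9903). Between the primaries, 9 of the 81 (11.1%, beside 16.5%) differed by at least 1, led by *Mdm2* (1.87), *Bard1* (1.80) and *Cdkn1a* (1.43, or 0.12 on its other probe) upward in the irradiated tumour and *Ercc6* (-1.37) and *Dclre1c* (-1.33) downward.

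**Figure D4:**
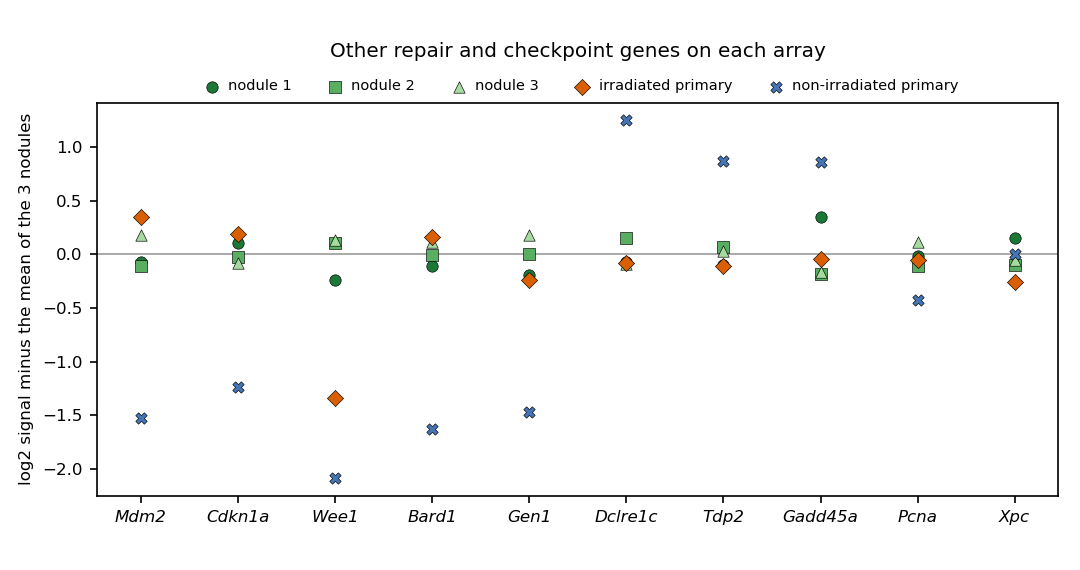
Level on each of the 5 arrays, as log2 signal minus the mean of the 3 nodules (y axis), of 10 further repair and checkpoint genes (x axis). For *Mdm2*, *Cdkn1a* (brighter probe), *Bard1* and *Gen1* the blue cross of the non-irradiated primary lies 1.24 to 1.63 below the nodules with the irradiated primary (orange) beside them, *Wee1* is lower in both primaries, and *Dclre1c* and *Tdp2* show the cross above.

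Genes of DNA replication and mitosis are given beside the repair genes because several enzymes serve both. Of 27 tested, 13 rose against the non-irradiated primary (48.1%, beside 18.6% of all features) and 0 fell, with a median of 0.69. They included *Kif11*, a spindle motor (1.78, adjusted p = 0.0126), *Tpx2*, a spindle assembly factor (1.51, adjusted p = 0.0131), *Plk1*, a mitotic kinase (1.44, adjusted p = 0.0217), and *Ccne1*, the G1 cyclin (1.42, adjusted p = 0.0306). Against the irradiated primary 0 of 27 passed by limma (3.72% of all features), 6 had an unadjusted p under 0.05 (22% of all features), and the median was 0.094. All 3 nodules were above the non-irradiated primary for 25 of the 27 (40.1% of all features). The irradiated primary was also above it for 25 of the 27 (51.4% of all features), with a median of 0.58 between the primaries. Without nodules 1, 2 and 3 in turn the calls numbered 22, 0 and 2, beside 6406, 0 and 344 over all features. Under median scaling or without the intensity trend 7 passed, beside 2598 and 2487 of all features. Of the 19 of these genes with a promoter entry, 31.6% held an E2F word (3.23% of tested genes with a named promoter), 31.6% a cell cycle homology word (12.3%), 68.4% a CCAAT box (36%) and 68.4% a GC box (55.6%), with no test.

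**Figure D5:**
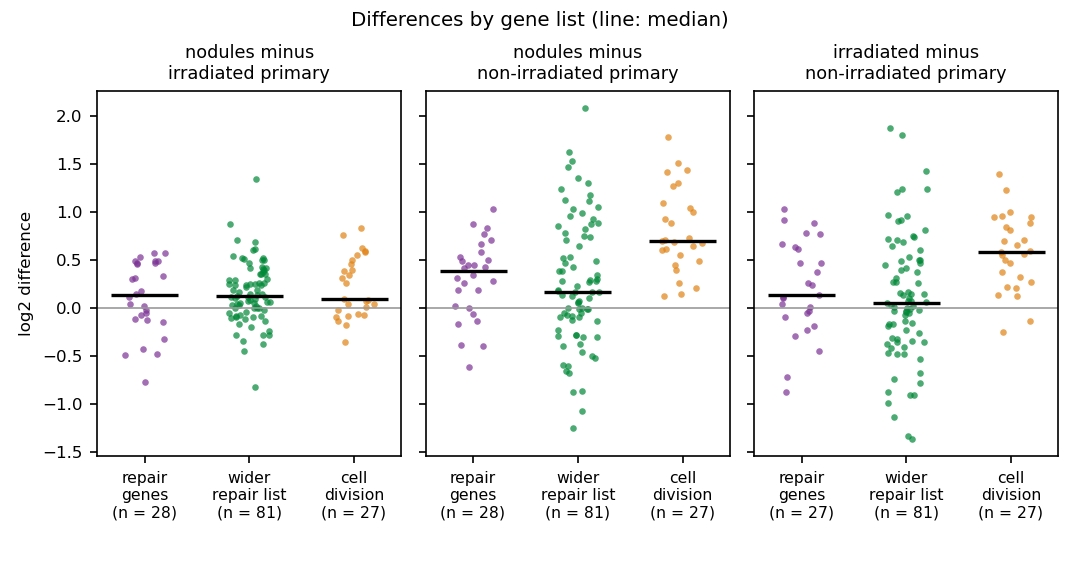
Log2 differences (y axis) of single genes (points) in the 28 repair genes, the 81 tested genes of the wider list and 27 cell division genes for the 3 comparisons (27 repair genes in the last, which has 1 array per side); lines are medians. In the middle panel the medians are 0.38, 0.17 and 0.69, and in the left panel all lie between 0.094 and 0.14.

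Other cell types differed between the same samples. Skeletal muscle markers (10 of 10 tested, among them *Acta1* and *Ckm*) summed to 2.30 to 2.51 in the nodules, 6.98 in the irradiated and 4.85 in the non-irradiated primary. All 10 passed as lower in the nodules against the irradiated primary (beside 2.81% of all features), and 9 against the non-irradiated one (beside 8.85%). *Myh4* and *Mybpc1* were not well above background in any nodule, so they were tested only because the primaries exceeded background. Macrophage markers (7 of 7 tested) summed to 5.38 to 5.57 in the nodules, 5.66 in the irradiated and 4.41 in the non-irradiated primary. Against the non-irradiated primary, 5 of them rose and 2 fell by limma (beside 9.72% higher and 8.85% lower of all features). Erythroid markers (3 of 4) summed to 6.70 to 7.79, 4.88 and 3.19, endothelial markers (3 of 5) to 0.33 to 1.92, -0.07 and -0.41, and lymphoid markers (3 of 5) to -3.34 to -2.77, -1.23 and -2.58, in the nodules, the irradiated and the non-irradiated primary. Singly the lymphoid markers went both ways. *Ptprc* was higher in the nodules on average, by 0.50 against the irradiated and 1.62 against the non-irradiated primary, and *Cd7* was lower (-2.88 and -1.62). *Cd2* was well above background only in the irradiated primary, and was tested only for that reason. The part of these cells in the differences of the repair genes was not tested.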

How the data were processed

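Total RNA of each tumour was labelled with Cy3 and hybridised to 1 one-colour Agilent rat array, per the labels' protocols. The deposited intensity values are spot signals from which Agilent Feature Extraction 11.0 had subtracted the background and removed spatial trends within each array, per the file headers; nothing was adjusted between arrays. The deposited spot flags are other values of 0 or 1. A deposited matrix of log2 values for 18502 probes, with each column's median at 9.74 and a correlation of 0.9996 to 0.9999 with its own array, was made by the authors in a way not given in the sources used here, and served as an alternative. Equal column medians alone do not tell which adjustment between arrays was used.

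Outlier spots (0.603 to 0.865% of an array) and 4259 control spots were left out, the log2 signals of a probe's spots were averaged and the 75th percentile of the array was subtracted. A probe counted as well above background when most of its spots were flagged so. Accessions named 18354 of 30363 probes, and of several probes the brightest was taken per gene. The array design rests on an older genome build, so no probe coordinates are given. limma 3.58.1 in R 4.3.3 fitted 3 group means with an intensity trend, and p-values were adjusted by Benjamini-Hochberg over all 18913 features. The spread comes from the 3 nodules alone (2 residual degrees of freedom), and each lone primary was assumed to vary like them. A feature passed at an adjusted p under 0.05. Between the primaries, log2 differences of 1 or more were counted. The number of arrays limits the precision.

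The lower bound of a fold sets the brighter group's mean against the higher of the dim probe's own level and the lowest level well above background on that array. Summed marker levels are log2 of the summed linear levels. The alternatives were scaling by the median, quantile normalization, normexp with an offset of 50 (on median spot signals, since the files hold no mean signals), no filter on dim probes, only features well above background on all 5 arrays, no intensity trend, the mean of a gene's probes, the deposited matrix, a 1.5-fold threshold for the primaries, and leaving out each nodule. Values in every sample are given for genes that passed, that differed by at least 1 log2 unit, or that differed most in their pathway, and for the other members; from the wider and cell division lists, for up to 4 called genes with the largest change each way and a few fixed genes, some of which are not reported here. Single genes beyond that rule were named, with their call alone, after their values were seen. The members, lists and rules were chosen with earlier results of these data known.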

Additional observations from a re-analysis of the deposited data

How the results depend on the processing

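No paired analysis was possible because each primary is 1 array and the groups share fewer than 2 replicate numbers. The calls of limma depended on single nodules. Leaving out 1 nodule at a time gave 0 to 3187 features against the irradiated primary (704 with all 3), with 0 to 5 repair genes, 0 to 9 of the wider list and 0 to 5 of cell division. Against the non-irradiated primary it gave 0 to 6406 features (3512 with all 3), with 0 to 9, 0 to 36 and 0 to 22 genes of these lists, and a repair gene median of 0.325 to 0.373. Median scaling gave 438 features and 0 of the wider list against the irradiated primary, and 0 repair and 7 cell division genes against the non-irradiated one. With no intensity trend these were 399, 0, 0 and 7. Quantile normalization left 0 of the wider list against the irradiated primary. Restricting to features well above background on all 5 arrays gave 4 repair genes against the non-irradiated primary. Normexp correction lowered the repair gene median there to 0.237 and the features differing by at least 1 between the primaries to 1495. Of repair genes, 0 differed by that much between the primaries under median scaling, quantile normalization or normexp, and 10 at a threshold of 1.5-fold. The cause of these shifts was not tested.

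Of 1245 other alternative values, for single genes and list medians, 1149 kept direction and side of the threshold (or, for untested values, moved by less than the nodule SD), 34 lost and 20 gained a call, 16 moved further and 26 changed sign. All sign changes were in comparisons in which the gene had not passed. Against the irradiated primary they were, under median scaling, *Rad50* (0.024), *Rad54l* (0.076) and *Chek1* (0.042), under normexp *Rad54l* (0.025), and *Ccne1* under quantile normalization (-0.011) and in the deposited matrix (-0.012). Against the non-irradiated primary they were *Lig1* under quantile normalization (-0.019) and in the matrix (-0.021), and *Xpc* under median scaling (0.010) and normexp (0.015). When 1 nodule was left out, the differences from the irradiated primary spanned -0.313 to 0.295 for *Lig4*, -0.107 to 0.149 for *Rad54l*, -0.030 to 0.114 for *Pold1*, -0.171 to 0.040 for *Chek1*, -0.079 to 0.199 for *Ccne1*, -0.133 to 0.133 for *Gadd45a* and -0.0067 to 0.102 for *Pcna*. Those from the non-irradiated primary spanned -0.113 to 0.267 for *Brca2*, -0.178 to 0.026 for *Fancd2*, -0.045 to 0.051 for *Lig1* and -0.080 to 0.046 for *Xpc*. Signal over background limited *Neil1*, *Exo1* and *Xrcc2*.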
